A study of Mus musculus with 10 samples.

Results

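The 50 genes described here are a set of mouse cell cycle and DNA replication genes, taken by symbol from both deposited expression tables. Each symbol matched 1 row of the 48897 rows in each table, so all 50 were found and all 50 passed the filter on low values. They were divided by the step of the cycle in which the transcript or its protein is known to act. The G1/S group holds 20 genes and the G2/M group holds 30.

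RNA-seq was measured in 10 samples. Sorted prostate epithelium, positive for EpCAM and negative for CD45, came from 3-month-old C57BL/6 mice and gave 3 control libraries (A, B and C) and 3 libraries (A, B and C) of a genotype that adds Arid1aPC-/-. Deletions are driven by Probasin-Cre, a Cre recombinase under a promoter active in prostate epithelium, and the control mice are engineered as well, so neither genotype stands for normal prostate. The Myc-CaP line, grown from a prostate tumour of an FVB mouse with a MYC transgene, gave 2 empty vector libraries and 2 Arid1a KO libraries, each numbered 1 and 2. The study made its stable knockout lines with lentiviral guide RNA and used the empty vector as control. All samples carry the same growth text and the same sorting text, and the study also grew Myc-CaP tumours, so the labels do not settle whether these Myc-CaP samples came from culture. Nothing in the labels says whether libraries of a group came from separate mice or cultures. For the epithelium the study's methods give n = 3 beside the mice used. The p-values measure the spread between these samples.

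Cells enter the cycle when cyclin D and cyclin E kinases release E2F transcription factors, which switch on genes for origin licensing, the MCM helicase, nucleotide supply and DNA synthesis. Later, the B-Myb and FoxM1 factors act with the MuvB complex to raise genes for mitotic cyclins, spindle, kinetochore and cytokinesis proteins. Most of these transcripts are nearly silent in resting cells, so their level in a bulk sample follows how many cells are cycling. In bulk samples a larger share of cycling cells and more of a transcript per cycling cell cannot be told apart.

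The epithelium is given in RPKM, a read count divided by the length of the gene and the total of the library, and Myc-CaP in TPM, a value scaled by gene length and then to 1 sum in each library. Whole reads could be recovered from both units. The recovered totals ran from 28789422 to 36293064 reads in the epithelium and from 18432605 to 20698110 reads in Myc-CaP. Values of the 50 genes rested on 41 reads (Ttk) to 3043 reads (Mki67) in the epithelium, and on 434 reads (Gins2) to 20111 reads (Top2a) in Myc-CaP. Arid1a itself was not lower in the epithelium libraries labelled Arid1a KO, at 27.8, 21.9 and 26.5 RPKM in the controls and 31.1, 28.8 and 30.8 RPKM in those libraries (limma adjusted p = 0.05397). The tables hold 1 value per gene, so loss of single exons could not be seen, and epithelium libraries are called by their labels throughout. In Myc-CaP, Arid1a fell from 60.5 and 60.98 TPM to 39.5 and 40.3 TPM (adjusted p = 0.0102).

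Cell cycle genes as a group were higher in the epithelium libraries labelled Arid1a KO. Of the 50 genes, 40 rose and 1 fell at an adjusted p under 0.05 from limma over all genes tested. Of all 16275 genes tested 57.1% were called, 27.5% higher and 29.6% lower. Together the 50 genes held 0.0614% to 0.0679% of the summed RPKM in the controls and 0.103% to 0.113% in the knockout-labelled libraries. G2/M genes rose in 26 of 30 cases, with Plk1 falling, and G1/S genes rose in 14 of 20. The median fold, as the ratio of group means in RPKM, was 1.74 for G2/M genes and 1.47 for G1/S genes. On the log2(RPKM + 1) scale, which understates changes of low genes, the medians were 0.51 and 0.41, beside a median of -0.028 over all genes tested.

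In every library labelled Arid1a KO the values lay above every control value for 44 of the 50 genes, below for 1 (Plk1), and overlapped for 5. The same separation upward was seen in 32.4% of all genes tested and downward in 34.4%, 66.7% in all. At a change of at least 1.5-fold on the log2(RPKM + 1) scale with an unadjusted p under 0.05, 21 of the 50 were higher and 0 lower. Of all genes tested, 11.8% were higher and 13% lower by that rule. By an unadjusted limma p under 0.05 alone, 45 of the 50 passed. The share of all genes passing that alone was not computed, and 57.1% passed even after adjustment. Among libraries of a group, Arid1a KO library B was the highest, with 41 of the 50 genes above their group mean.

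**Figure D1:**
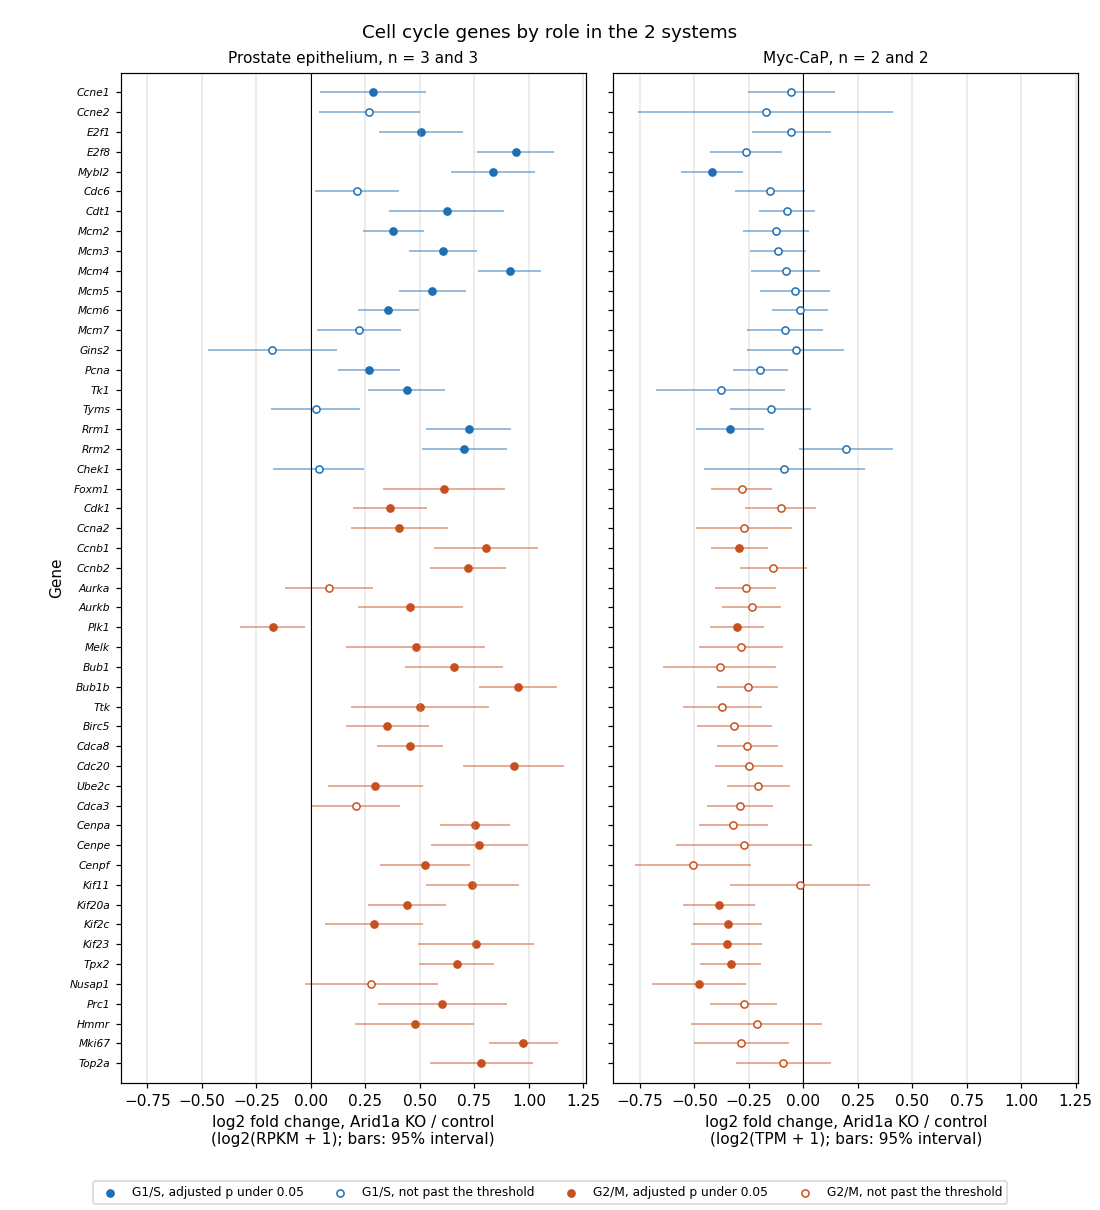
Log2 fold change of each of the 50 genes between Arid1a KO and control libraries (x axis, log2 of RPKM or TPM plus 1) in prostate epithelium (left, n = 3 and 3) and Myc-CaP (right, n = 2 and 2), with 95% intervals from limma. Filled points passed an adjusted p of 0.05: 41 on the left, of which 40 lie above 0, and 9 on the right, all below 0.

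In Myc-CaP the direction was the other way and the changes were small. Of the 50 genes, 0 rose and 9 fell at an adjusted p under 0.05 (limma), where 6.43% of all 13974 genes tested were called, 4.54% higher and 1.89% lower. Log2 fold changes were negative for 49 of 50 genes, Rrm2 being the exception, with a median of -0.28 for G2/M genes and -0.10 for G1/S genes, beside -0.014 over all genes tested. As ratios of group means in TPM the medians were 0.820 and 0.932. An unadjusted limma p under 0.05 was reached by 29 of the 50, 24 of them G2/M genes, and the share of all genes reaching it was not computed. No gene called lower fell by 1.5-fold, and 0 of the 50 passed the rule of 1.5-fold with an unadjusted p under 0.05, against 4.62% of all genes tested higher and 1.66% lower. When any 1 library was left out 0 of the 50 were called, in fits where 1 group then holds a single library that is assumed to vary like the others, while the log2 fold changes of these 9 genes lay between -0.57 and -0.27. None of the 50 was called by limma when the variance was modelled without its trend on expression, and 24 were called, all lower, by limma voom on the recovered reads, an alternative added after seeing the data that called 11.2% of all genes tested.

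Sequence upstream of the start is shown for the G1/S and the G2/M gene with the largest absolute log2 fold change in each system, on the log2(value + 1) scale, because genes of the 2 groups are known to be driven through different promoter elements. These are E2f8 and Mki67 in the epithelium and Mybl2 and Cenpf in Myc-CaP. Each line gives the 250 bases before the annotated start, 5′ to 3′ on the strand of the gene, from RefSeq on GRCm38.p6. The capitals mark matches, on either strand, to CCAAT, to the cell cycle homology region written TTTGAA or in its variant form TTCGAA, and to the E2F element TTGGCGC, with the variants of it that read TTCGCGC, that read TTCCCGC and that read TTGCCGC.
E2f8 (chr7:48881597-48881846, minus strand): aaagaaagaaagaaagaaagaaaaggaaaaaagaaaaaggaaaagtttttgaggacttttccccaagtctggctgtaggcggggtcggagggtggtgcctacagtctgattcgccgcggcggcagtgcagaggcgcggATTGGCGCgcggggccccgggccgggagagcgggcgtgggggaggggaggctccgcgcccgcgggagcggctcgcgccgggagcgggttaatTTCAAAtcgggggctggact
Mybl2 (chr2:163054385-163054634, plus strand): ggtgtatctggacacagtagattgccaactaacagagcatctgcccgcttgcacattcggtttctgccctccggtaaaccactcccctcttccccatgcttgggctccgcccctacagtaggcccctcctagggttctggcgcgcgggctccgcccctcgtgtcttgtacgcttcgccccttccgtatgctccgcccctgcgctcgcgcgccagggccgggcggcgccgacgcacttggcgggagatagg
Mki67 (chr7:135716380-135716629, minus strand): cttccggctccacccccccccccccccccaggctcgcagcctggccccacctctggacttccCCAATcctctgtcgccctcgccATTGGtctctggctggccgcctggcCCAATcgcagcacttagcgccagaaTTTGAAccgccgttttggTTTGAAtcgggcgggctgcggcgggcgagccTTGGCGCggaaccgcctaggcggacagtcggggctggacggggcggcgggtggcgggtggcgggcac
Cenpf (chr1:189688087-189688336, minus strand): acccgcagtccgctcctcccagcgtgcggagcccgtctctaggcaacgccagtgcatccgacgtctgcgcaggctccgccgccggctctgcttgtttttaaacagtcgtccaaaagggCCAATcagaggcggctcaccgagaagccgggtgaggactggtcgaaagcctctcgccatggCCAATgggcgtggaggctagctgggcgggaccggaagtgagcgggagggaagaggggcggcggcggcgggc

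The Mki67 stretch held 3 CCAAT matches, 2 cell cycle homology region matches starting 116 and 98 bases before the start, and 1 E2F match starting 67 bases before it. E2f8 held 1 match of each kind, with its CCAAT match (read as ATTGG) and its E2F match overlapping by all but 1 base of the former. Cenpf held 2 CCAAT matches. Mybl2 had 0 matches in this window to the exact letters searched, which does not show that it lacks such elements. RefSeq entries were at hand for 42 of the 50 genes. CCAAT was found in 84% of the 25 G2/M promoters and 52.9% of the 17 G1/S promoters, beside 37.5% of the promoters of all 27025 symbols searched in the same way. Cell cycle homology region letters were in 40% of G2/M and 17.6% of G1/S promoters (19.6% of all), and E2F letters in 16% of G2/M and 41.2% of G1/S promoters (9.01% of all). A match of letters is a description and does not show that a factor binds there.

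In the epithelium, E2f8 had the largest fold change of the G1/S group on the log2(RPKM + 1) scale, followed by Mcm4 and Mybl2. E2f8, an atypical E2F that represses E2F targets late in S phase, measured 1.39, 1.26 and 1.37 RPKM in the controls (here and below in the order A, B, C) and 3.62, 3.35 and 3.47 RPKM in the libraries labelled Arid1a KO. The groups were far apart, with a 2.602-fold higher mean, and the log2 fold change was 0.94 ± 0.076 (SE) with an adjusted p of 7.87e-05. Mybl2, which encodes B-Myb, measured 1.32, 1.15 and 1.28 RPKM in the controls and 3.22, 3.01 and 2.82 RPKM in the libraries labelled Arid1a KO, again without overlap. Its log2 fold change was 0.84 ± 0.083 (SE), adjusted p = 0.000172. E2f1, the activating factor of S phase entry, rose less, from 3.37, 3.59 and 3.82 RPKM to 5.16, 6.04 and 5.36 RPKM (log2 fold change 0.50 ± 0.083 (SE), adjusted p = 0.00168).

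Of the cyclin E genes, whose products pair with Cdk2 at the G1/S boundary, 1 of 2 passed. Ccne1, encoding cyclin E1, measured 2.05, 2.31 and 2.48 RPKM in the controls and 2.64, 2.8999 and 3.48 RPKM in the libraries labelled Arid1a KO. Its log2 fold change of 0.28 ± 0.10 (SE) just passed the threshold (adjusted p = 0.04695), and the call was lost without any of control libraries A, B and C (adjusted p 0.135, 0.0780 and 0.0614) or Arid1a KO libraries B and C (0.0907 and 0.1298). Ccne2, encoding cyclin E2, was among the lowest of the 50 genes, at 0.659, 0.473 and 0.7097 RPKM and 1.06, 0.889 and 0.869 RPKM. Its values did not overlap between groups, on 59 to 111 reads, yet it did not pass (log2 fold change 0.27 ± 0.099 (SE), 95% interval 0.035 to 0.50, adjusted p = 0.0509). Its mean was 1.53-fold higher in RPKM, and it was called higher under 6 of 15 alternatives, among them voom on the recovered reads (log2 fold change 0.65, adjusted p = 0.0289).

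Origin licensing and helicase genes rose in 6 of 9 cases. Cdt1, which loads the MCM helicase at origins, measured 8.75, 6.74 and 9.36 RPKM in the controls and 13.3, 13.8 and 12.5 RPKM in the libraries labelled Arid1a KO (log2 fold change 0.62 ± 0.11 (SE), adjusted p = 0.00265). Its loading partner Cdc6 was at 0.989 ± 0.0352 and 1.304 ± 0.1005 RPKM (SD, n = 3) and did not pass (adjusted p = 0.0602), although its values did not overlap and 4 of 15 alternatives called it higher.

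The 6 subunits of the MCM helicase ring, Mcm2 to Mcm7, did not move by the same amount. Mcm4 measured 8.08, 7.695 and 8.06 RPKM in the controls and 15.5, 16.6 and 15.5 RPKM in the libraries labelled Arid1a KO, a log2 fold change of 0.91 ± 0.062 (SE) (adjusted p = 4.02e-05). Mcm2 went from 11.3, 11.5 and 10.8 RPKM to 14.8, 14.5 and 15.3 RPKM, a log2 fold change of 0.38 ± 0.06 (SE) (adjusted p = 0.00143). Mcm3, Mcm5 and Mcm6 rose by 0.60, 0.56 and 0.36 on the log2 scale, and Mcm7 had 0.22 with an adjusted p of 0.0522 and was called higher under 7 of 16 alternatives. Mcm4 was the lowest and Mcm7 the highest of the 6 in each control library, with Mcm7 at 1.79, 1.84 and 1.99 times the level of Mcm4. In the libraries labelled Arid1a KO that ratio was 1.04, 1.16 and 1.12, and the widest gap among the 6, between Mcm3 and Mcm5, was 1.46-fold, 1.52-fold and 1.41-fold. The highest and lowest subunit thus lay closer together per length in each of those libraries than in any control.

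Gins2, a subunit of the GINS complex that activates the loaded helicase, was the only G1/S gene with a negative log2 fold change. It measured 6.41, 9.05 and 7.94 RPKM in the controls and 6.04, 7.599 and 6.59 RPKM in the libraries labelled Arid1a KO, so the groups overlapped, and it did not pass (log2 fold change -0.18 ± 0.13 (SE), 95% interval -0.47 to 0.12, adjusted p = 0.261). Over 16 alternatives its log2 fold change ran from -0.30 to 0.046, positive where the trend on gene length was removed. Of its 4097 annotated exon bases, 67.3% lie opposite exons of Gse1, on the other strand, and the study's methods describe counts taken by strand. The length behind its deposited values is 1038 bases, so that share need not hold for the bases counted. Gins2 was among 7 genes sharing 10% or more of their exon bases with another gene. The others were Kif20a (29.3%), Ube2c (22.8%), Ccne2 (17.4%), Ccna2 (12.5%), E2f8 (11.2%) and Prc1 (11.1%). The effect of such overlaps on the values was not tested.

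Genes for nucleotide supply and DNA synthesis rose in 4 of 5 cases. Rrm1 and Rrm2 encode the large and small subunits of ribonucleotide reductase, which makes deoxyribonucleotides. Rrm1 measured 8.71, 8.94 and 8.87 RPKM in the controls and 14.4, 17.3 and 14.2 RPKM in the libraries labelled Arid1a KO (log2 fold change 0.72 ± 0.084 (SE), adjusted p = 0.000348), and Rrm2 rose alongside, from 7.12 ± 0.694 to 12.2 ± 0.604 RPKM (SD, n = 3; adjusted p = 0.000369). Pcna, the sliding clamp of DNA polymerase, was the most abundant of the 50 genes per length, at 60.4, 61.7 and 64.8 RPKM and 75.3, 77.6 and 72.3 RPKM. Its rise was small but larger than the spread (log2 fold change 0.27 ± 0.061 (SE), adjusted p = 0.00738). Tk1, the thymidine salvage kinase, rose by 0.44 on the log2 scale (adjusted p = 0.00202). Tyms, which makes thymidylate de novo, overlapped between groups at 1.37, 1.33 and 1.49 RPKM and 1.27, 1.54 and 1.504 RPKM (log2 fold change 0.022 ± 0.087 (SE), 95% interval -0.18 to 0.23, adjusted p = 0.839). Chek1, the kinase of the replication checkpoint, also overlapped, at 1.27, 1.12 and 1.43 RPKM and 1.38, 1.37 and 1.23 RPKM (log2 fold change 0.035 ± 0.09 (SE), 95% interval -0.17 to 0.25, adjusted p = 0.753).

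**Figure D2:**
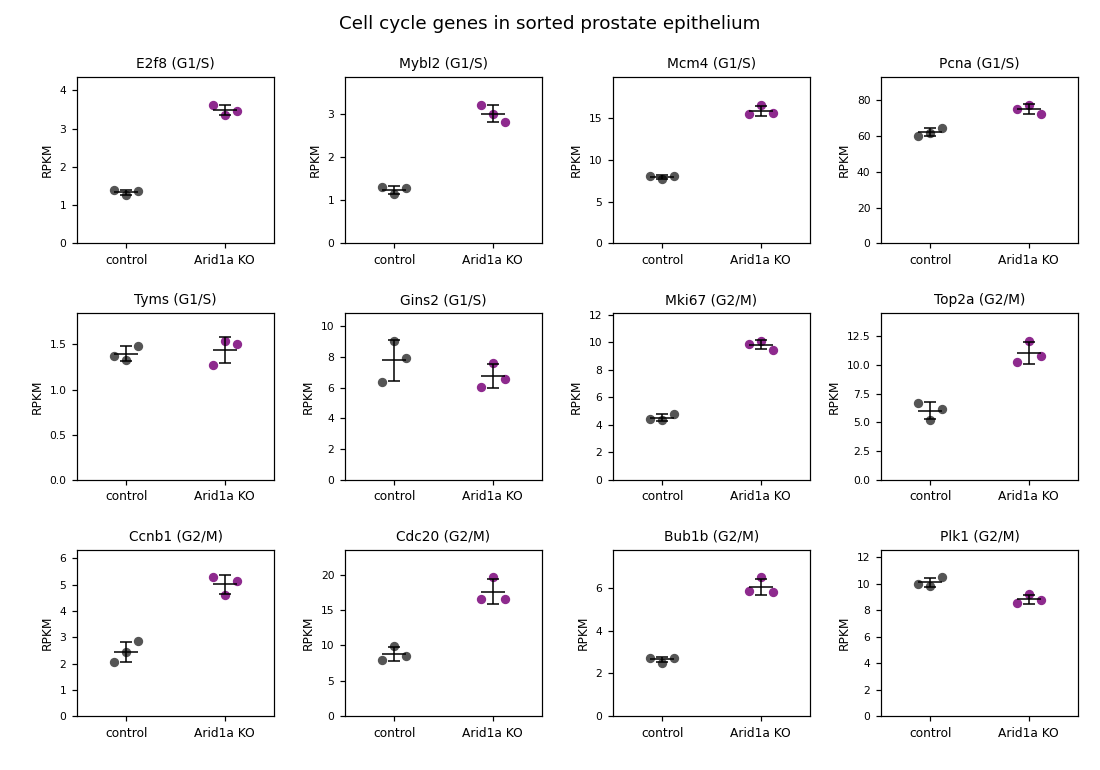
RPKM of 12 of the genes in each epithelium library (points), by group, with the mean and SD (bars, n = 3), on axes that start at 0. E2f8, Mybl2, Mcm4, Mki67, Ccnb1, Cdc20 and Bub1b sit about 2-fold or more higher in the libraries labelled Arid1a KO, Tyms and Gins2 overlap, and Plk1 lies lower.

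Among G2/M genes of the epithelium, the proliferation marker Mki67 had the largest fold change on the log2(RPKM + 1) scale, while as a ratio of group means Cenpe had the largest, at 2.43-fold beside 2.18-fold. Its protein coats mitotic chromosomes. It measured 4.404, 4.32 and 4.78 RPKM in the controls and 9.89, 10.1 and 9.45 RPKM in those labelled Arid1a KO, and the log2 fold change was 0.97 ± 0.068 (SE) (adjusted p = 4.66e-05). Top2a, the DNA topoisomerase that untangles sister chromatids, measured 6.704, 5.19 and 6.14 RPKM and 10.3, 12.1 and 10.8 RPKM (log2 fold change 0.78 ± 0.10 (SE), adjusted p = 0.000545). Both genes separated the groups completely. The ratio of Mki67 to Pcna within a library was 0.0729, 0.0701 and 0.0738 in the controls and 0.131, 0.1298 and 0.131 in the libraries labelled Arid1a KO, so 2 genes often used to score proliferation did not rise by the same factor.

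Foxm1, the transcription factor of the G2/M genes, measured 2.599, 1.77 and 2.66 RPKM in the controls and 4.27, 4.098 and 3.85 RPKM in the libraries labelled Arid1a KO (log2 fold change 0.61 ± 0.12 (SE), adjusted p = 0.00372). The mitotic kinase Cdk1 and its cyclins all rose. Cdk1 went from 3.12, 3.44 and 3.14 RPKM to 4.399, 4.6003 and 4.32 RPKM (log2 fold change 0.36 ± 0.073 (SE), adjusted p = 0.00414). Ccnb1, encoding the cyclin B1 that activates Cdk1, rose more, from 2.07, 2.45 and 2.84 RPKM to 5.28, 4.59 and 5.16 RPKM (log2 fold change 0.80 ± 0.10 (SE), adjusted p = 0.000527). Per length, Ccnb1 lay below Cdk1 in each control library (0.664, 0.713 and 0.904 of its level) and near or above it in the libraries labelled Arid1a KO (1.199, 0.999 and 1.19). Ccnb2 and Ccna2, for cyclins B2 and A2, rose by 0.72 and 0.41 on the log2 scale.

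The mitotic kinases were the mixed class of the G2/M group. Plk1, the polo kinase of mitotic entry and spindle assembly, was the only gene of the 50 called lower. It measured 10.00, 9.84 and 10.5 RPKM in the controls and 8.53, 9.19 and 8.78 RPKM in the libraries labelled Arid1a KO, without overlap (log2 fold change -0.18 ± 0.063 (SE), adjusted p = 0.0458). That call was fragile, since it was lost in 12 of the 16 alternatives, with adjusted p-values of 0.0918 and 0.151 without control libraries A and C, 0.133, 0.0663 and 0.0927 without Arid1a KO libraries A, B and C, and a fold change of -0.014 after rescaling to the same sum. Aurka, which acts at the centrosome, overlapped between groups at 4.67 ± 0.3095 and 5.01 ± 0.488 RPKM (SD, n = 3; adjusted p = 0.4402). Its relative Aurkb, the kinase of the chromosomal passenger complex, rose by 0.46 ± 0.10 (SE) on the log2 scale (adjusted p = 0.00716). Melk went from 1.97, 1.16 and 1.82 RPKM to 2.801, 2.91 and 2.31 RPKM (log2 fold change 0.48 ± 0.14 (SE), adjusted p = 0.01898), and did not pass without Arid1a KO library A or B (adjusted p 0.0581 and 0.0654).

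Genes of the spindle checkpoint, which holds anaphase until chromosomes are attached, all rose. Bub1b, encoding BubR1, measured 2.74, 2.498 and 2.72 RPKM in the controls and 5.85, 6.501 and 5.84 RPKM in the libraries labelled Arid1a KO (log2 fold change 0.95 ± 0.077 (SE), adjusted p = 7.58e-05). Bub1 rose 2.35-fold and Ttk, encoding the Mps1 kinase, 2.27-fold, on log2 scales of 0.66 and 0.50. Ttk had the lowest control level of the 50 genes and measured 0.804, 1.47 and 1.12 RPKM in the libraries labelled Arid1a KO, and without library B of that group its adjusted p was 0.0514. The chromosomal passenger genes Cdca8 and Birc5, for borealin and survivin, also rose. Cdca8 measured 5.92, 6.23 and 6.06 RPKM and 8.69, 9.04 and 8.35 RPKM (log2 fold change 0.46 ± 0.065 (SE), adjusted p = 0.000866), and Birc5 had a log2 fold change of 0.35 ± 0.081 (SE).

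Cdc20, the activator of the anaphase-promoting complex, measured 7.91, 9.88 and 8.56 RPKM in the controls and 16.6, 19.6 and 16.6 RPKM in the libraries labelled Arid1a KO, a 2.01-fold higher mean (log2 fold change 0.93 ± 0.099 (SE), adjusted p = 0.000236). Ube2c, the ubiquitin-conjugating enzyme of the same complex, rose by 0.30 ± 0.093 (SE) (adjusted p = 0.0279), and the call was lost without control library A or C or Arid1a KO library B or C (adjusted p 0.0894, 0.0878, 0.0887 and 0.0767). Cdca3, a trigger of mitotic entry, had 0.21 and did not pass (adjusted p = 0.0746), although 3 of 15 alternatives called it higher.

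The 3 centromere and kinetochore genes rose together. Cenpe, the kinesin that moves chromosomes to the spindle equator, measured 0.892, 0.906 and 1.16 RPKM in the controls and 2.15, 2.54 and 2.47 RPKM in the libraries labelled Arid1a KO, a 2.43-fold higher mean (log2 fold change 0.77 ± 0.095 (SE), adjusted p = 0.000449). Cenpf and Cenpa, the latter the centromeric histone H3, rose 2.12-fold and 1.78-fold. All 4 spindle kinesins rose as well. Kif23, a motor of the central spindle, measured 3.801, 2.91 and 3.52 RPKM and 6.59, 7.21 and 5.55 RPKM (log2 fold change 0.76 ± 0.11 (SE), adjusted p = 0.00114), and Kif11, Kif20a and Kif2c rose 2.08-fold, 1.46-fold and 1.35-fold. The call on Kif2c (adjusted p = 0.03498) was lost without any of control libraries A and B (0.107 and 0.0567) and Arid1a KO libraries A, B and C (0.102, 0.0568 and 0.0785).

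Of the 4 genes of spindle assembly and midzone, 3 rose. Tpx2, which activates Aurora A on spindle microtubules, measured 2.901, 2.801 and 3.23 RPKM in the controls and 5.26, 5.31 and 5.39 RPKM in the libraries labelled Arid1a KO (log2 fold change 0.67 ± 0.074 (SE), adjusted p = 0.000283). Prc1, which bundles midzone microtubules, and Hmmr rose 1.67-fold and 1.76-fold. Nusap1 overlapped between groups and did not pass, at 1.58 ± 0.337 and 2.12 ± 0.393 RPKM (SD, n = 3; adjusted p = 0.106).

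As a mean over each group of genes, all controls lay below all libraries labelled Arid1a KO. The mean log2(RPKM + 1) of the G1/S genes was 2.65, 2.62 and 2.71 in the controls and 3.05, 3.15 and 3.09 in the libraries labelled Arid1a KO. For the G2/M genes it was 2.04, 2.002 and 2.09 in the controls and 2.54, 2.66 and 2.55 in the libraries labelled Arid1a KO. The difference of the 2 means, G2/M minus G1/S, was -0.60, -0.62 and -0.62 in the controls and -0.51, -0.49 and -0.54 in the others. G2/M genes thus gained slightly more than G1/S genes on this scale, without overlap between groups. In Myc-CaP that difference was 0.20 and 0.27 in the empty vector libraries and 0.060 and 0.11 in the Arid1a KO libraries, so there the G2/M genes lost more.

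**Figure D3:**
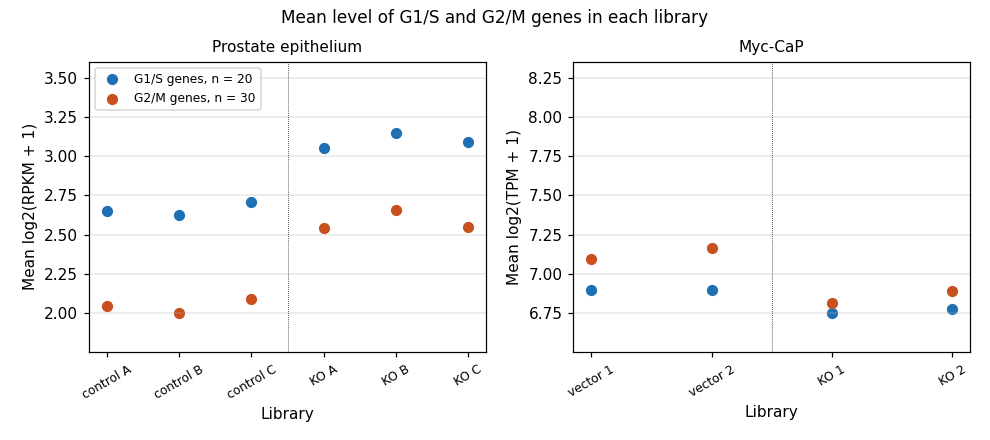
Mean log2(RPKM + 1) or log2(TPM + 1) of the 20 G1/S genes and the 30 G2/M genes in each library (points), prostate epithelium on the left and Myc-CaP on the right, both axes spanning the same number of log2 units. Both means are higher with the Arid1a KO label in the epithelium and lower with it in Myc-CaP.

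Beyond the 50 genes, 100 further cell cycle genes in 4 lists were examined, of which 99 were tested in each system. In the epithelium 57 rose and 8 fell, 65.7% of the 99, beside the 57.1% of all genes tested that were called. That share was made up of 27.5% higher and 29.6% lower. Of 36 further replication genes 16 rose and 1 fell. With both directions pooled this was 47.2%, below the 57.1%, but nearly all of those called were rises. The largest rises on the log2(RPKM + 1) scale were Dbf4 (log2 fold change 0.72 ± 0.074 (SE)), the activator of the Cdc7 kinase, Pola1 (0.69 ± 0.12 (SE)), the catalytic subunit of DNA polymerase alpha, and Uhrf1 (0.62 ± 0.071 (SE)), which maintains DNA methylation after replication, and the fall was Gins4 (-0.27 ± 0.072 (SE)), a partner of Gins2. As a ratio of group means E2f7, an atypical E2F like E2f8, rose more, 2.84-fold, from 0.275 ± 0.0881 to 0.781 ± 0.0965 RPKM (SD, n = 3). Of 46 further mitosis genes, 45 tested, 32 rose and 1 fell, 73.3%. On the log2 scale Ncapg2 (1.13 ± 0.11 (SE)) and Smc2 (0.86 ± 0.086 (SE)), both of condensin, and Ckap2l (0.94 ± 0.085 (SE)), a spindle protein, rose most, and Pttg1 (-0.35 ± 0.11 (SE)), encoding securin, fell.

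The 13 genes of G1 entry divided, with 8 higher and 3 lower in the epithelium. Ccnd2, for cyclin D2, went from 14.7 ± 2.35 to 34.3 ± 3.11 RPKM (SD, n = 3; log2 fold change 1.18 ± 0.12 (SE), adjusted p = 0.000203). Cdk6, a kinase partner of D cyclins, and Rb1, the retinoblastoma gene, rose by 0.78 and 0.78. Ccnd3, Cdk4 and E2f5 fell by 0.30, 0.29 and 0.29 on the log2 scale. Of the 5 MuvB core subunits, through which B-Myb and FoxM1 reach mitotic promoters, Lin54 rose (1.05 ± 0.10 (SE)) and Rbbp4 (-0.39 ± 0.075 (SE)), Lin52 (-0.28 ± 0.094 (SE)) and Lin37 (-0.27 ± 0.093 (SE)) fell.

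Fold changes in the epithelium rose with gene length, which was recovered along with the reads. Across all genes tested the Spearman rho between log2 fold change and length was 0.231 in the epithelium and -0.0051 in Myc-CaP, given as a description across genes, which are not independent replicates. Genes of 1000 to 2000 bases had a median log2 fold change of -0.21 and genes over 6000 bases 0.19. The 50 genes, of 931 to 11561 bases, lay above these medians in each range of length, for example at 0.46 for the 7 of 1000 to 2000 bases and 0.65 for the 4 over 6000 bases. Removal of the length trend from each library, an alternative chosen after seeing the data, left 43 of the 50 higher (27.6% of all genes tested) and 0 lower, with medians of 0.51 for G1/S and 0.56 for G2/M genes. Plk1, of 2214 bases, then had -0.066 (adjusted p = 0.388), and Gins2, of 1038 bases, had 0.046 (adjusted p = 0.728).

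**Figure D4:**
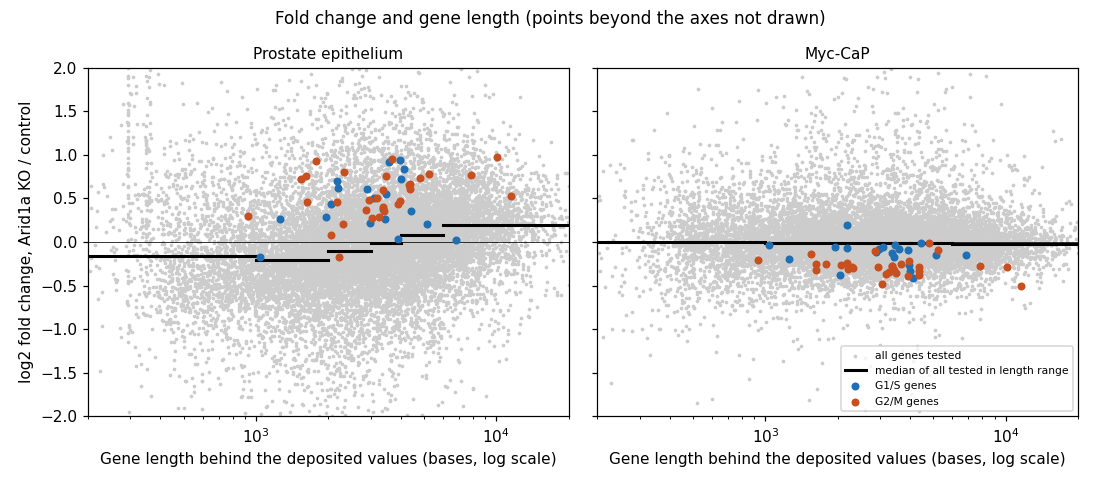
Log2 fold change (y axis) against the gene length behind the deposited values (x axis, bases, log scale) for all genes tested (grey), G1/S genes (blue) and G2/M genes (orange), with the median of all genes tested in each of 6 length ranges (black). The black steps run from -0.21 at 1000 to 2000 bases to 0.19 above 6000 bases in the epithelium and lie between -0.020 and 0.0057 in Myc-CaP, and most coloured points lie above the steps on the left and below them on the right.

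Marker genes of several cell types differed with the label in the epithelium. Of all genes tested there, 57.1% were called, 27.5% higher and 29.6% lower, and the counts of markers stand beside that share. Summed over 5 markers each, macrophage genes (Lyz2, Adgre1, Csf1r, Cd68, C1qa) went from between 1501 and 1755 RPKM to between 3023 and 3424 RPKM with 5 of 5 higher, and T cell genes from between 15.8 and 19.98 to between 25.8 and 29.5 with 3 of 5 higher. Of the pan-leukocyte markers 4 of 5 were higher and 1 lower, in cells sorted as CD45 negative. They summed to 712 to 746 RPKM and 798 to 859 RPKM. The lower marker, Cd52, had group means of 344 RPKM in the controls and 161 RPKM in the other libraries. Ptprc, which encodes CD45, had means of 28.6 and 57.3 RPKM, Cd53 31.9 and 86.3, Laptm5 190 and 361, and Coro1a 137 and 162. Of the neutrophil markers 3 of 5 were higher, at 317 to 449 and 363 to 597 RPKM. S100a8 and S100a9, which overlapped between groups, carried most of that sum. Csf3r had means of 23.1 and 49.4 RPKM, Cxcr2 7.37 and 18.3, and Ly6g 0.409 and 1.13. Basal epithelial markers were higher in 2 of 4 cases and epithelial markers lower in 3 of 5, at 3729 to 5078 and 3016 to 3423 RPKM. Erythroid markers were lower in 5 of 5 tested, fibroblast markers in 3 of 5, and 1 of 4 endothelial markers was higher. Seminal vesicle genes, lower in 7 of 7, held 4.10% to 4.92% of the summed RPKM in the controls and 0.162% to 0.407% in the other libraries. The part of these cell types in the rise of the cell cycle genes was not tested.

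In Myc-CaP the genes called lower were 2 of the G1/S group (Mybl2 and Rrm1) and 7 of the G2/M group (Ccnb1, Plk1, Kif20a, Kif2c, Kif23, Tpx2 and Nusap1). Every Arid1a KO library lay below every empty vector library for 38 of the 50 genes, above for 1 and neither for 11, where 26.6% of all genes tested were separated downward and 24.9% upward, 51.5% in all. Mybl2 measured 104 and 99.5 TPM in empty vector libraries 1 and 2 and 76.1 and 75.5 TPM in Arid1a KO libraries 1 and 2 (log2 fold change -0.42 ± 0.055 (SE), adjusted p = 0.0213). It had the largest fall of the G1/S group. E2f1 overlapped, at 52.7 and 51.3 TPM and 52.4 and 47.8 TPM (log2 fold change -0.055 ± 0.071 (SE), adjusted p = 0.718), and E2f8, at 41.1 ± 0.917 and 34.1 ± 0.956 TPM (SD, n = 2), did not pass (adjusted p = 0.0918).

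The cyclin E genes differed more between libraries of a group than between groups. Ccne1 measured 69.9 and 63.03 TPM and 65.9 and 61.9 TPM (log2 fold change -0.056 ± 0.077 (SE), 95% interval -0.25 to 0.14, adjusted p = 0.737). Ccne2 measured 42.05 and 55.6 TPM and 34.97 and 52.3 TPM (log2 fold change -0.17 ± 0.23 (SE), 95% interval -0.76 to 0.41, adjusted p = 0.723). For Ccne2 library 1 was the lower in both groups.

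None of the 9 licensing and helicase genes passed in Myc-CaP, and their log2 fold changes lay between -0.15 and -0.013. Cdc6 had the largest, from 39.9 and 38.6 TPM to 35.3 and 35.05 TPM (log2 fold change -0.15 ± 0.062 (SE), 95% interval -0.31 to 0.0077, adjusted p = 0.248). Cdt1 measured 206 and 202 TPM and 195 and 192 TPM (adjusted p = 0.466), and Mcm2 measured 213 and 203 TPM and 196 and 185 TPM (log2 fold change -0.13 ± 0.059 (SE), 95% interval -0.28 to 0.024). For these 3 genes the Arid1a KO values were the lower ones without overlap. Mcm7 was the highest and Mcm4 the lowest of the 6 MCM subunits in each library, with Mcm7 at 2.29 and 2.05 times Mcm4 in the empty vector libraries and 2.33 and 2.01 times in the Arid1a KO libraries, so the groups overlapped.

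Ribonucleotide reductase split in Myc-CaP. Rrm1 fell, from 217 and 232 TPM to 174 and 181 TPM (log2 fold change -0.34 ± 0.06 (SE), adjusted p = 0.0454). Rrm2, the most abundant of the 50 genes there and the only one with a positive log2 fold change, measured 821 and 907 TPM and 937 and 1043 TPM, higher without overlap but not past the threshold (log2 fold change 0.20 ± 0.084 (SE), 95% interval -0.021 to 0.41, adjusted p = 0.268). The ratio of Rrm2 to Rrm1 was 3.79 and 3.92 with the empty vector and 5.40 and 5.77 in the knockout, while in the epithelium it overlapped between groups, at 0.708 to 0.858 and 0.736 to 0.873.

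Other genes of DNA synthesis were lower in TPM without passing. Pcna measured 718 and 715 TPM and 625 and 625 TPM (log2 fold change -0.20 ± 0.049 (SE), adjusted p = 0.09504). Tk1 went from 108 and 95.5 TPM to 85.5 and 70.7 TPM (log2 fold change -0.38 ± 0.11 (SE), adjusted p = 0.144), and Tyms from 23.3 and 24.5 TPM to 21.1 and 21.8 TPM (log2 fold change -0.15 ± 0.072 (SE), adjusted p = 0.318). Chek1 overlapped, at 28.1 and 30.4 TPM and 23.9 and 31.5 TPM (log2 fold change -0.088 ± 0.14 (SE), 95% interval -0.46 to 0.28, adjusted p = 0.781).

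All 30 G2/M genes had a negative log2 fold change in Myc-CaP, and 7 passed. Ccnb1 measured 285 and 279.5 TPM with the empty vector and 227 and 233 TPM in the knockout (log2 fold change -0.29 ± 0.051 (SE), adjusted p = 0.0404), and Cdk1 measured 149.8 and 148 TPM and 144 and 133 TPM (log2 fold change -0.10 ± 0.063 (SE), adjusted p = 0.419). Foxm1 went from 88.1 and 87.7 TPM to 71.1 and 73.1 TPM and missed the threshold narrowly (log2 fold change -0.28 ± 0.054 (SE), adjusted p = 0.0526). Plk1 fell from 254 and 251 TPM to 204 and 204 TPM (log2 fold change -0.30 ± 0.049 (SE), adjusted p = 0.0341), and it was the only gene called lower in both systems. Its epithelium call was fragile, being lost in 12 of 16 alternatives.

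The kinesins held 3 of the 7 G2/M genes called lower. Kif20a, needed for cytokinesis, measured 162 and 149 TPM and 119 and 118 TPM (log2 fold change -0.39 ± 0.064 (SE), adjusted p = 0.0371). Kif23 and Kif2c had -0.35 and -0.35, and Kif11 overlapped between groups with -0.017. Nusap1, a spindle microtubule protein, had the largest fall among called genes, from 101 and 115 TPM to 74.3 and 79.4 TPM (log2 fold change -0.48 ± 0.083 (SE), adjusted p = 0.0412), and Tpx2 had -0.33 ± 0.054 (SE).

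Other G2/M genes with lower values in the knockout did not pass. Cenpf had the largest log2 fold change of the 50 genes, from 39.7 and 46.3 TPM to 28.3 and 31.6 TPM (-0.51 ± 0.10 (SE), 95% interval -0.77 to -0.24, adjusted p = 0.0611). Bub1 measured 81.7 and 93.2 TPM and 62.3 and 71.4 TPM (-0.38 ± 0.10 (SE), adjusted p = 0.107), Birc5 102 and 106 TPM and 79.9 and 87.3 TPM (-0.32 ± 0.067 (SE), adjusted p = 0.0672), and Cdca3 74.6 and 74.9 TPM and 59.5 and 62.5 TPM (-0.29 ± 0.058 (SE), adjusted p = 0.0585). Each of these 4 was lower without overlap. Mki67 measured 179.6 and 201 TPM and 148 and 164 TPM (log2 fold change -0.29 ± 0.085 (SE), 95% interval -0.50 to -0.067, adjusted p = 0.139). Top2a overlapped, at 438 and 489 TPM and 412 and 457 TPM (log2 fold change -0.091 ± 0.084 (SE), adjusted p = 0.598).

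**Figure D5:**
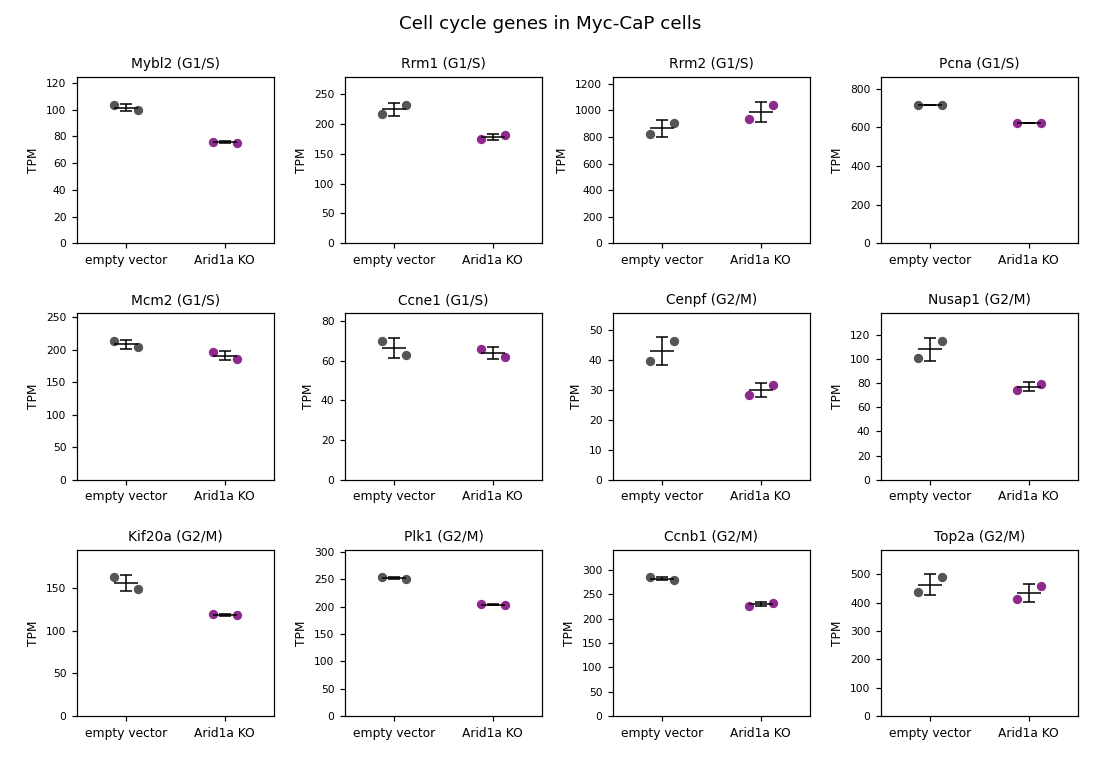
TPM of 12 of the genes in each Myc-CaP library (points), by group, with the mean and SD (bars, n = 2), on axes that start at 0. Mybl2, Rrm1, Nusap1, Kif20a, Plk1 and Ccnb1 lie lower in the knockout, Rrm2 higher, and Ccne1 and Top2a overlap.

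Of the 99 further cell cycle genes tested in Myc-CaP, 7 fell and 1 rose, 8.08% beside 6.43% of all genes tested. By direction, 1.89% of all genes tested were called lower and 4.54% higher. The only further replication gene called was Gmnn (-0.41 ± 0.06 (SE)), encoding geminin, the inhibitor of Cdt1. Of the mitosis genes Nek2 (-0.65 ± 0.057 (SE)), a centrosome kinase, Ndc80 (-0.64 ± 0.094 (SE)), of the outer kinetochore, and Kif22 (-0.50 ± 0.065 (SE)) fell most, Ccnf, Racgap1 and Tacc3 fell as well, and Ncaph (0.39 ± 0.052 (SE)), of condensin, rose. None of the 12 G1 entry genes tested (limma, 1 with an unadjusted p under 0.05) or the 5 MuvB genes (2 with an unadjusted p under 0.05) passed, and voom on the recovered reads called 18 of the 99 in all. Markers of leukocytes, T cells and neutrophils summed to at most 5.49 TPM each in Myc-CaP, macrophage markers to at most 2.80 TPM, endothelial and seminal vesicle markers to at most 0.259 TPM, and fibroblast markers to between 7.07 and 32.5 TPM with the empty vector and between 5.89 and 14.7 TPM in the knockout. Of the epithelial markers 2 of 2 tested were higher, and the 5 listed summed to between 0.940 and 1.42 TPM with the empty vector and between 43.3 and 44.4 TPM in the knockout. Krt8 carried most of that sum, and Epcam was listed at 0 in both empty vector libraries. Basal epithelial markers summed to between 0.480 and 0.622 TPM with the empty vector and between 3.39 and 9.95 TPM in the knockout, with 1 of 2 tested higher. Erythroid markers summed to between 27.1 and 32.4 TPM and between 142 and 145 TPM, with 1 of 2 tested higher, and Hba-a1 carried most of the sum. The part of these changes in the cell cycle values was not tested.

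Set side by side, 7 genes were higher in the epithelium and lower in Myc-CaP at the threshold in each table: Mybl2, Rrm1, Ccnb1, Kif20a, Kif2c, Kif23 and Tpx2. Another 33 were higher in the epithelium and not called in Myc-CaP. Plk1 was lower in both, with a fragile call in the epithelium. Nusap1 was lower in Myc-CaP and not called in the epithelium, and 8 were called in neither. The tables were normalized separately and the difference between systems was not tested. Control levels of the 50 genes ranked much alike (Spearman rho = 0.755 across the 50 genes, as a description), with Pcna and Ube2c among the 3 highest in both. They differed in the share of the transcriptome, at 0.0614% to 0.0679% of summed RPKM in the epithelium controls and 0.894% and 0.916% of summed TPM in the empty vector libraries, which fell to 0.790% and 0.818% in the knockout.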

How the data were processed

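RNA-seq of 10 samples in 4 groups was analysed. The epithelium values were deposited by the authors as RPKM (6 libraries) and the Myc-CaP values as TPM (4 libraries). The study's methods name TopHat2 on GRCm38/mm10 and counts taken by strand with HTSeq-count, whereas the submitters' processing notes name HISAT2, HTSeq and DESeq2 on mm10, with versions not given. The annotation is not given in the sources used here. Per-sample and series tables held the same values (0 differed), 0 columns were left unmapped, and 0 of 21 pairs of libraries were identical.

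Groups came from the genotype labels. An allele shared by both epithelium genotypes and 1 marker list are not reported here. Genes with a table mean of at least 0.5 were tested on log2(value + 1) with limma 3.58.1 (R 4.3.3, empirical Bayes with a trend), within each table, with Benjamini-Hochberg adjustment over all genes tested and a threshold of 0.05. All adjusted p-values are from this fit unless another is named. The second rule was an unadjusted p under 0.05 with a 1.5-fold change. Count models were not applied to RPKM or TPM. Whole reads were recovered from the steps between low values, for 100% of the tested rows within 0.005 reads, and were used in limma voom, an alternative added after seeing the data. Precision rests on the number of replicates and on the reads per gene. In simulated data with known changes, the false share of calls of the main fit was 0.0939 for the epithelium and 0.134 for Myc-CaP. Both are above the threshold of 0.05. The fit recovered 71.1% and 36.0% of changes of 0.75 on the log2 scale, and 97.9% and 89.7% of changes of 1.5. Few genes were changed in the simulation, for the epithelium 97 of each size among 16131 run, with the same relative spread for all genes. In the real epithelium data 57.1% of genes tested were called, so these shares need not hold there. Exon overlaps used GENCODE M21 and promoters RefSeq, both on GRCm38. Values in every library are given for the gene of each role with the largest absolute log2 fold change, for 13 genes always shown, and for genes against their group's direction. Of the further lists, the 3 largest rises and falls called are named, and Ccnf, Racgap1, Tacc3 and the per-library values of Ttk, Rrm2 and Mybl2 in the epithelium were added after their values were seen. The 50 genes, the lists and the rules were chosen with earlier results of these data known.

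Same-lettered or same-numbered libraries were checked for pairing by the correlation of their deviations from the group means, which was 0.041, 0.0094 and -0.057 in the epithelium. In Myc-CaP, with 2 libraries a group, the check gives a single value, 0.195, and 2 pairs are too few to decide it. The labels tie the letters and numbers to no shared source, so the block was kept as an alternative. Alternatives covered the pseudocount (0.1), the filter (none, or a mean of 5), 3 scalings, the variance model, a replicate block, leaving out each library, voom and removal of the trend on gene length.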

Additional observations from a re-analysis of the deposited data

Results flagged for a closer look

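The direction of change differed between the systems. For 34 of the 50 genes every epithelium library labelled Arid1a KO lay above every control and every Myc-CaP Arid1a KO library lay below every empty vector library, and 10 of these were G1/S genes and 24 G2/M genes. Of all 12123 genes tested in both tables, 9.43% were separated in this way and 9.82% in the opposite way. Of the 34, 7 were also called in both tables. Mybl2 had a log2 fold change of 0.84 in the epithelium and -0.42 in Myc-CaP, and Rrm1 had 0.72 and -0.34. For the mitotic genes the values were 0.80 and -0.29 (Ccnb1), 0.44 and -0.39 (Kif20a), 0.29 and -0.35 (Kif2c), 0.76 and -0.35 (Kif23), and 0.67 and -0.33 (Tpx2). The difference between the systems was not tested, since the tables were normalized separately and differ in strain, cell source and unit.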

How the results depend on the processing

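In the epithelium the medians of both gene groups stayed positive under every alternative run, and 35 to 40 of the 50 genes were called when 1 library was left out. With a minimum mean of 5, most of the 50 genes fell below the filter and were not tested. Of those tested, 20 kept the result of the main fit and 1 call (Mcm7) was gained, which left 20 called. Of the further cell cycle genes, also fewer in number there, 26 were called. The share of all genes called was not computed for this filter or with 1 library left out. The G1/S median was 0.52 with a pseudocount of 0.1, 0.50 with a minimum mean of 5, 0.57 after rescaling to the same sum, 0.55 with voom and 0.51 with the length trend removed, and the G2/M median was 0.78, 0.72, 0.61 and 0.81 under the first 4 of these. Leaving out 1 library gave G2/M medians of 0.48 (without Arid1a KO library B) to 0.57 (without control library C). Equal sums put the median of all genes at 0.11.

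In Myc-CaP the number called depended on the setting. Without a filter it was 1 of the 50 and 1 further gene, and without a variance trend 0 of the 50 and 1 further gene. It was 14 of the 50 with a minimum mean of 5 and with quantile normalization. Voom called 24 of the 50 and 18 further genes, and 11.2% of all genes tested, against 6.43% in the main fit. For the other settings named here that share was not computed, so their counts cannot be set against it. Leaving out any library gave 0 called in both lists, from 0 to 0, with direction kept for the 9 genes called and adjusted p-values of 0.120 to 0.257. The G1/S median was -0.090 with median-ratio scaling, -0.11 with quantile normalization, -0.092 with the length trend removed, and -0.12 to -0.11 with 1 library left out. The cause of these changes was not tested.

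With the replicate block, 33 of the 50 (1 of them higher) and 47 further genes were called in Myc-CaP, where this setting called 19.8% of all genes tested. In the epithelium it called 39 of the 50 and 54.2% of all genes tested, and Plk1 (adjusted p = 0.0960) and Kif2c (0.0669) were lost. The labels share only a letter or number, and not every epithelium library correlated best with its own letter. Voom and length removal were chosen after seeing the data.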

Other observations

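Per length, the order of the 50 genes by control level was led by Pcna, Mcm7 and Ube2c in the epithelium and by Rrm2, Pcna and Ube2c in Myc-CaP, and the lowest were Ttk at 0.4997 ± 0.128 RPKM (SD, n = 3) and Tyms at 23.9 ± 0.812 TPM (SD, n = 2). On the log2(value + 1) scale, the Spearman rho between fold change and control level was -0.044 in the epithelium and 0.127 in Myc-CaP. It is a description across genes that share libraries, on a scale that understates changes of low genes. As ratios of group means in the epithelium, Pcna, Mcm7 and Ube2c, ranked highest, had 1.21, 1.18 and 1.24. Cenpf, Ccne2 and Ttk, ranked 48, 49 and 50, had 2.12, 1.53 and 2.27. Genes between these did not follow that order throughout. Cdc20 and Mcm4, ranked 9 and 12, had 2.01 and 1.99, and Tyms and Chek1, ranked 40 and 42, had 1.03 and 1.04. No rho was computed over these ratios. Plk1 stood at 1.996 to 2.28 times the level of Aurka in the epithelium controls and at 1.67 to 1.94 times in the libraries labelled Arid1a KO, without overlap, while in Myc-CaP the ratio was 0.986 to 1.03 and 0.953 to 1.001.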
